A study of Homo sapiens with 2 samples.

Results

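The mRNAs of 5 human genes that encode cold shock domain proteins, YBX1, YBX2, YBX3, LIN28A and LIN28B, were examined for binding by YB-1, the product of YBX1. A PAR-CLIP cluster was counted for a gene when at least 1 of its bases fell in the span of the gene on its strand (GENCODE release 44, hg38). This gave 4 of the 1382 clusters of replicate A (Rep.A) and 4 of the 2011 of replicate B (Rep.B). Both replicates came from HEK293T cells of wild type, a line made from human embryonic kidney, that were given 100 µM 4-thiouridine for 16 h and irradiated at 365 nm with 0.15 J/cm2. RNase T1, an enzyme that cuts RNA after G, trimmed the bound RNA, and the complexes were recovered with an antibody raised against a peptide of the C-terminus of YB-1. The design holds 1 condition without a control library, and the values below are therefore descriptions, with no test.

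The cold shock domain is a small fold that binds single-stranded RNA and DNA, and in the Y-box proteins YB-1, YB-2 (YBX2, also called MSY2 or contrin) and YB-3 it is followed by a long, charged C-terminal domain that coats mRNA. YB-1 and YB-3 are made in many somatic cells, and YBX2 is known mainly from germ cells. LIN28A and LIN28B carry a cold shock domain beside zinc knuckles and are best known as inhibitors of let-7 microRNA maturation in stem cells, embryos and some tumours. YB-1 is known to repress translation of its own mRNA. Retrotransposed copies of the YBX1 mRNA, called processed pseudogenes, lie at many places in the human genome, and a short read from the mRNA can be placed in any of them. In PAR-CLIP the sequencer reads a crosslinked 4-thiouridine as C, so each sequence is written here as DNA with its T bases in capitals, as the candidate crosslinked bases.

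The following sequences carry the results. The 5 sites of YBX1 are those of at least 17 bases found on its mRNA, the gene locus being shown where a cluster was called there, and the other sequences are the clusters of YBX3 and LIN28B. The 3′ UTR sites of YBX1 were called only at copies of the gene, and are named by their place on its mRNA. Positions in the YBX1 mRNA are counted from the first base of transcript YBX1-201.
YBX1 coding sequence, 616 to 637 (chr1:42696755-42696776, plus strand): caaTTaccagcaaaaTTaccag
YBX1 coding sequence, 684 to 715 (chr1:42696823-42696854, plus strand): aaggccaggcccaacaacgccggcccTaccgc
YBX1 coding sequence, 753 to 769 (chr1:42696892-42696908, plus strand): aTgggcgTcgaccacag
YBX1 3′ UTR, 1134 to 1159 (called at chr9:35971308-35971333, minus strand): accaTcTcTaccaTcaTccggTTTag
YBX1 3′ UTR, 1221 to 1244 (called at chr15:62954220-62954243, plus strand): aagaccTaaagTgcTTgcTTTTTg
YBX3 3′ UTR, 1413 to 1436 of YBX3-201 (chr12:10699584-10699607, minus strand): ccacaaccTTaaccaacaccaaag
LIN28B 3′ UTR, 4999 to 5019 of LIN28B-201 (chr6:105082885-105082905, plus strand): aaTcacaTcTaTcaaccacTg

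YBX1 and YBX3 held clusters in both replicates, LIN28B held 1 in Rep.B alone, and YBX2 and LIN28A held none. Clusters of the replicates that overlapped on the same strand were joined into 1 reproducible region, which gave 2 regions in YBX1 and 1 in YBX3, of 1112 in all. A reproducible region was thus present in 2 of the 5 genes, and 3.32% of all 20046 protein-coding genes had one. A cluster in either replicate was present in 3 of the 5 genes, beside 5.56% of all protein-coding genes. The genes were chosen with earlier results of these data known, and expression is not in the tables. Binding below the level at which clusters were called was not detectable. The number of clusters was the same in both replicates, whereas Rep.B held more clusters over the whole genome and its reproducible regions had a median log2 coverage 1.38 higher than in Rep.A (quartiles 1.04 and 1.67, SD 0.72, n = 1112 regions). Coverage, the mean number of reads per base of a cluster, was deposited without scaling for depth, so this median was used as the reference for differences between the replicates.

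YBX1 (ENSG00000065978) lies on chromosome 1 from 42682418 to 42703805, on the plus strand. Its transcript YBX1-201 has 8 exons and 2979 nucleotides, and its coding sequence of 324 codons runs from position 149 to 1123, stop codon included. All clusters at the gene itself lay in exon 5, which takes up 303 nucleotides, or 10.2% of the mRNA. Rep.A had 3 clusters there, at 616 to 637, 684 to 715 and 753 to 769. Rep.B had the first and the second of these, at 618 to 637 and 684 to 714. The third was called at the gene in Rep.A alone.

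At the first YBX1 site, the coverage was 29.1 reads in Rep.A against 58.4 reads in Rep.B. It was higher than in 83.0% of the clusters of Rep.A and 81.1% of those of Rep.B. The site covers codons 156 to 163 and repeats the heptamer TTACCAG, which occurs 2 times in it. Each cluster had a transition at 1 of its 4 T bases, and its relative log odds, the score of the cluster per T base, was 0.192 in Rep.A against 0.275 in Rep.B, beside medians of 0.150 and 0.192 over all clusters.

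The second YBX1 site had a coverage of 32.1 reads in Rep.A against 43.3 reads in Rep.B. It holds a single T base, at position 710 of the mRNA, the first base of codon 188, and this base carried the transition in both replicates. Clusters with 1 T base made up 1.37% of Rep.A (95% Wilson interval 0.882 to 2.14%) and 1.54% of Rep.B (1.09 to 2.18%), so the crosslinked base is resolved here as in few other clusters. The relative log odds was 0.524 in Rep.A against 1.07 in Rep.B, above 97.5% and 99.4% of the clusters of the replicate. This score is taken per T base, and the median number of T bases was 5 in both replicates. Its rank is therefore not a measure of the total score of the cluster. The site was also rich in G and C, which made up 71.9% of the Rep.A cluster and 71.0% of the Rep.B cluster, beside a median of 45.5% over all clusters of 18 to 100 bases in both replicates. RNase T1 would leave a G at the 3′ end, and the Rep.B cluster ended in G, whereas the Rep.A cluster ran 1 base further and ended in C. Among the reproducible regions of 18 to 100 bases, 88.9% ended in G.

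The third YBX1 site had a coverage of 43.9 reads in Rep.A, the highest of the 3 clusters of that replicate at the gene. It covers codons 202 to 207, and 1 of its 2 T bases had a transition. Of the 3 sites, the first had less G and C than most clusters, at 36.4% in Rep.A, and the third had more, at 64.7%. Together the exon 5 sites, with the longer clusters found in copies of the gene, spanned 164 nucleotides. This part of the coding sequence encodes part of the C-terminal domain, past the cold shock domain.

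Most clusters on the YBX1 mRNA sequence lay outside the YBX1 gene. A search of hg38 for stretches that share many 18-base words with the mRNA found 14 copies of YBX1, 13 of LIN28A and 2 each of YBX2 and YBX3. Most of the LIN28A stretches matched its 3′ UTR alone, with no pseudogene annotated there. Clusters on the strand of the copy were called in 5 of the 14 YBX1 copies in each replicate, and in none of the copies of the other genes. Of the 10 annotated pseudogenes YBX1P1 to YBX1P10, 4 held a reproducible region, namely YBX1P1, YBX1P2, YBX1P6 and YBX1P10, beside 1.03% of all pseudogenes. The fifth copy with clusters is the pseudogene ENSG00000259394 on chromosome 15. YBX1P8, on chromosome X, was not among the 14 copies found by the search, and held no cluster on its own strand. Copies and gene together held 13 clusters on the YBX1 mRNA sequence in Rep.A, 3 of them at the gene, and 12 in Rep.B, 2 of them at the gene. All of these clusters matched the mRNA without a mismatch. The bases of a cluster in a copy do not tell the pseudogene from the mRNA, because they are the same in both. The reads behind the clusters were not compared.

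**Figure D1:**
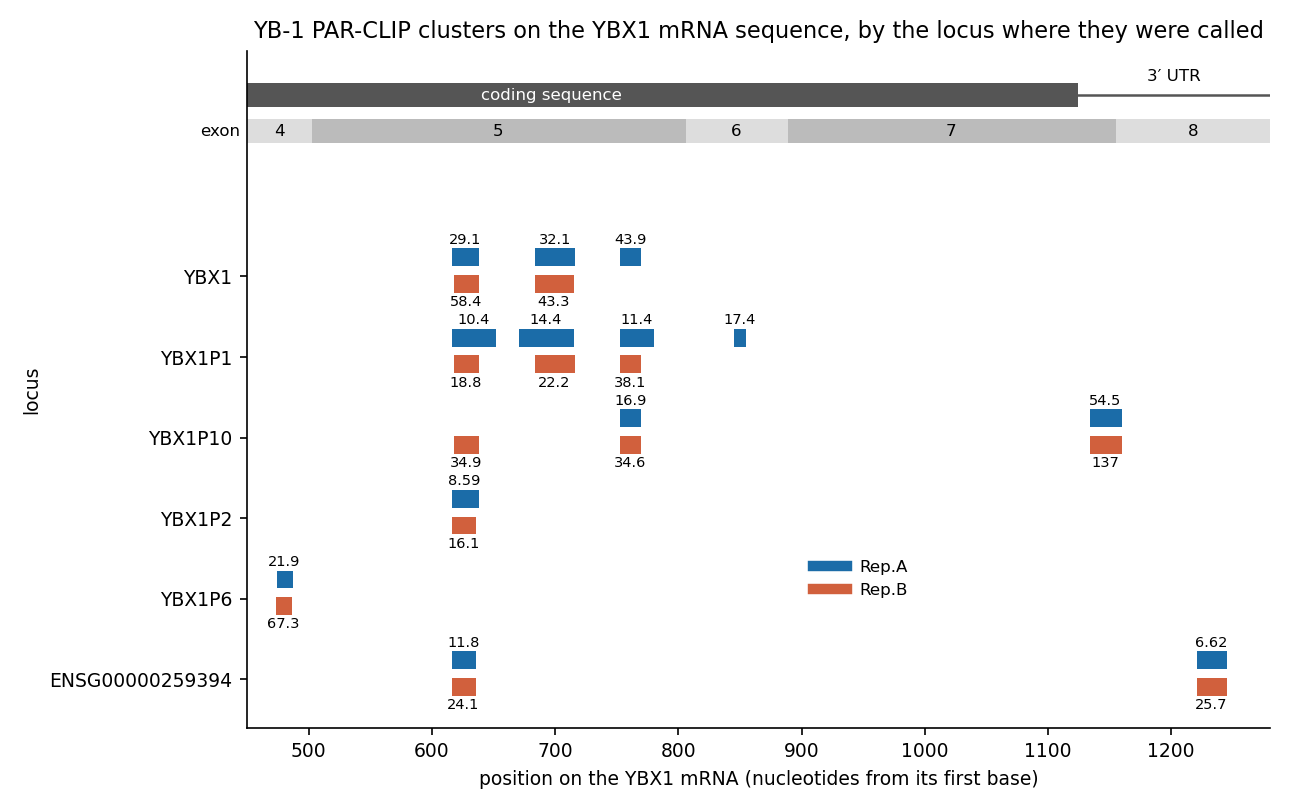
Clusters on the YBX1 mRNA, drawn by the locus where they were called. The horizontal axis is the position on the mRNA in nucleotides, each bar is a cluster of Rep.A (blue) or Rep.B (orange), the number beside it is its mean coverage in reads per base, and the upper bars show the exons and the coding sequence. Clusters at the gene lie in exon 5 alone, and those in copies also lie in exons 4, 6 and 8 and across the border of exons 7 and 8.

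The first site was called at all 5 places where its sequence occurs, the gene and 4 copies, in at least 1 replicate. In Rep.A the coverage was 29.1 reads at the gene, 11.8 at ENSG00000259394, 10.4 at YBX1P1 and 8.59 at YBX1P2. In Rep.B it was 58.4 reads at the gene, 34.9 at YBX1P10, 24.1 at ENSG00000259394, 18.8 at YBX1P1 and 16.1 at YBX1P2. The gene had the highest coverage in both replicates, and YBX1P10 was called in Rep.B only.

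The second site occurs exactly at the gene and at YBX1P1, and was called at both in both replicates. The coverage at YBX1P1 was 14.4 reads in Rep.A against 22.2 in Rep.B, below that at the gene each time. The third site occurs exactly at the gene, YBX1P1 and YBX1P10. Its coverage at YBX1P1 was 11.4 reads in Rep.A against 38.1 in Rep.B, and at YBX1P10 it was 16.9 and 34.6. In Rep.B, where no cluster was called at the gene, both copies thus had one, and the sequence of the third site was found in both replicates.

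A further site lay in the 3′ UTR, at 1134 to 1159, starting 11 nucleotides past the stop codon. It spans the junction of exons 7 and 8, after position 1154, so that its sequence is not contiguous in the gene. It was called at chr9:35971308-35971333, just past the annotated end of YBX1P10, with a coverage of 54.5 reads in Rep.A against 137.0 in Rep.B. These were the highest values of any cluster on the YBX1 mRNA sequence in either replicate, above 90.5% and 92.7% of all clusters. The same 26 bases occur at YBX1P1 and YBX1P2, where no cluster was called. The site has 8 T bases and a transition at 1 of them, and its relative log odds was low, at 0.0287 in Rep.A against 0.112 in Rep.B.

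The other 3′ UTR site, at 1221 to 1244 in exon 8, started 98 nucleotides past the stop codon. Its coverage was 6.62 reads in Rep.A against 25.7 in Rep.B, both at ENSG00000259394. The sequence is also present in exon 8 of the gene, at chr1:42702047-42702070, where no cluster was called in either replicate. Counting by the span of the gene leaves this site out, and its bases do not tell the YBX1 mRNA from the pseudogene.

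Short clusters were placed by aligning each copy with the mRNA. At YBX1P6, a cluster of 13 bases lay at 474 to 486 in Rep.A and, in Rep.B, at 473 to 485, in exon 4, with a coverage of 21.9 and 67.3 reads. The 12 bases that both share are found at 7 of the 15 loci, the gene among them, and were called at YBX1P6 only. At YBX1P1, a cluster of 10 bases at 845 to 854, in exon 6, was called in Rep.A with a coverage of 17.4 reads and not in Rep.B.

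The 5 sites of at least 17 bases were compared over the gene and its 14 copies, which gives 75 pairs of a site and a locus. The bases shared by all clusters of the site were present without mismatch in 15 of these pairs, and 12 of the 15 had a cluster in either replicate. Rep.A had a cluster in 11 of the 15 and Rep.B in 11, with 10 shared. No cluster was called in the 11 pairs with 1 mismatch or in the 49 pairs with more. The sites were defined by these clusters, so the counts describe where the clusters were placed.

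Between the replicates, coverage was compared at each locus where a cluster was called in both. For the first site, it was 2.01 times as high in Rep.B as in Rep.A at the gene, 2.06 times at ENSG00000259394, 1.80 times at YBX1P1 and 1.88 times at YBX1P2. The log2 differences of 0.85 to 1.04 lay below the median of 1.38 over all regions, and at the gene the gap was 0.38. YBX1P10, called in Rep.B alone, gave no such value. A read of several matches was kept at 1 place, so the value at a locus holds only the reads placed there. Summed over all loci with a cluster, YBX1P10 included in Rep.B, the first site had 59.9 reads in Rep.A against 152.3 in Rep.B. The log2 difference of these sums was 1.35.

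The second site differed less between the replicates than most regions. Its log2 difference was 0.43 at the gene and 0.62 at YBX1P1, and 4.77% and 8.54% of all reproducible regions had a lower one. For the third site, the difference could be taken only at the copies, and it was 1.73 at YBX1P1 and 1.03 at YBX1P10. Summed over its loci, the third site had 72.3 reads in Rep.A, the gene included, against 72.7 in Rep.B, without the gene. The log2 difference of these sums was 0.01. At the 3′ UTR sites, each called at 1 locus, the log2 difference was 1.33 for 1134 to 1159 and 1.96 for 1221 to 1244. The clusters at YBX1P1 were wider in Rep.A than in Rep.B at all 3 exon 5 sites, and their mean coverages are thus over different bases.

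**Figure D2:**
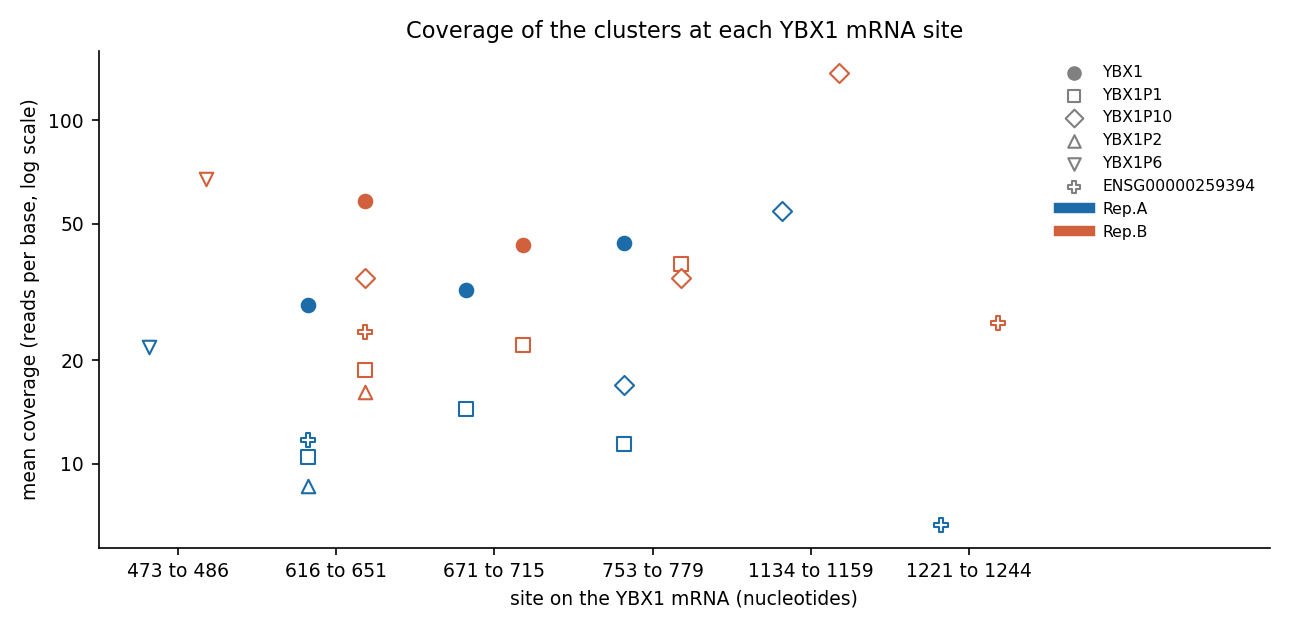
Mean coverage of each cluster at the YBX1 mRNA sites called in both replicates, in reads per base on a log scale, against the site. Symbols mark the locus, filled circles are the YBX1 gene, and colours are Rep.A (blue) and Rep.B (orange). At the first and second exon 5 sites the gene has the highest coverage in both replicates, and at the third it has 43.9 reads in Rep.A and no cluster in Rep.B.

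YBX3 (ENSG00000060138) lies on chromosome 12 from 10699089 to 10723323, on the minus strand, and its transcript YBX3-201 has 10 exons and 1931 nucleotides. It had 1 cluster in each replicate, with the same 24 bases in both. The coverage was 43.2 reads in Rep.A against 120.5 in Rep.B, the highest of any cluster called at the 5 genes in Rep.B. Among the 627 reproducible regions in exons of protein-coding genes, it ranked 17th by coverage in Rep.A and 13th in Rep.B. The log2 difference was 1.48, within 0.10 of the median of all regions. The site starts 82 nucleotides past the stop codon and lies in exon 10, the last exon, and the 3′ UTR has 600 nucleotides.

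The YBX3 site holds 2 T bases next to each other and both carried transitions in both replicates. Clusters with a transition at every T base were 1.66% of Rep.A (95% Wilson interval 1.11 to 2.48%) and 2.04% of Rep.B (1.51 to 2.75%). The relative log odds, a score per T base, was 0.971 in Rep.A against 1.22 in Rep.B, above 99.5% and 99.8% of the clusters. The median cluster held 5 T bases in both replicates. The sequence occurs once in hg38 and has no copy with 1 mismatch, and the copies of YBX3 on chromosomes 12 and 16 differed from it at 9 and 7 bases. Unlike the YBX1 sites, it can thus be assigned to its gene. For comparison, 42.6% of the clusters of 18 to 100 bases in Rep.A against 46.1% in Rep.B had more than 1 exact copy.

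**Figure D3:**
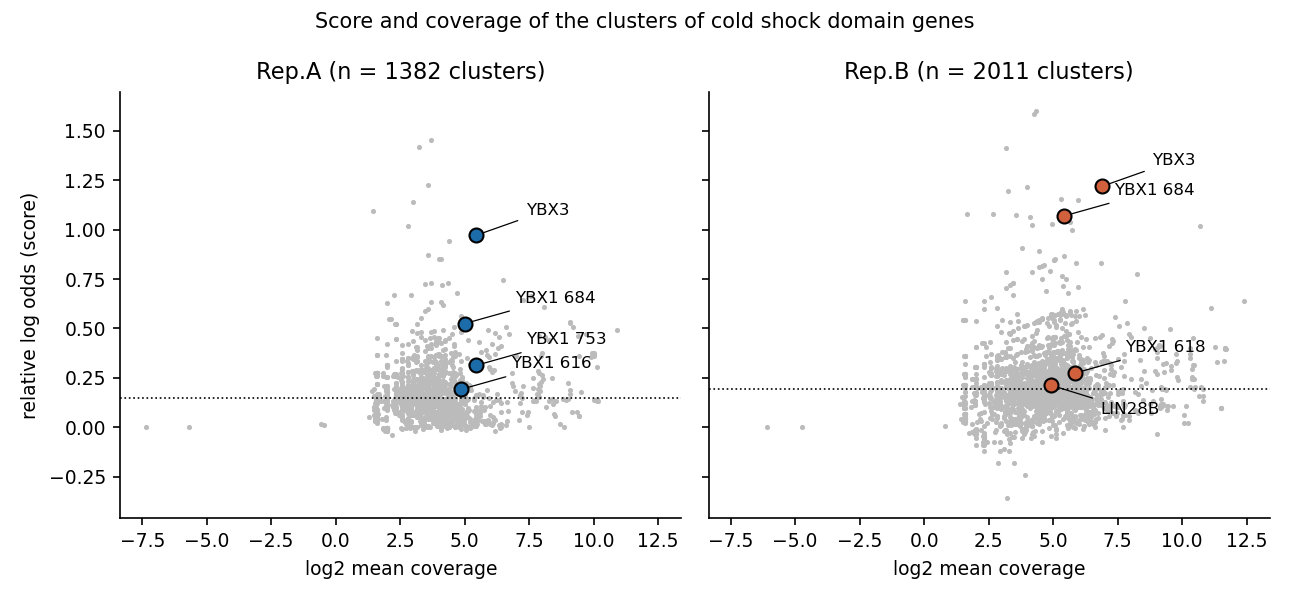
Relative log odds (a score) against log2 mean coverage for all clusters of Rep.A and Rep.B, with the clusters of cold shock domain genes in colour and, for YBX1, the mRNA position where they start. The dotted line is the median score of the replicate. The clusters of YBX3, at 0.971 and 1.22, and the second cluster of YBX1, at 0.524 and 1.07, stand high in both. The score is per T base, and these clusters hold 2 and 1 T bases, beside a median of 5.

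LIN28B (ENSG00000187772) lies on chromosome 6 from 104936616 to 105083332, on the plus strand. Rep.B had a cluster of 21 bases there, with a coverage of 30.0 reads, a transition at 1 of 5 T bases and a relative log odds of 0.213. Rep.A had none at the gene. The cluster lay in the last exon of LIN28B-201, 4102 nucleotides past the stop codon and 427 nucleotides before the end of the mRNA. It is absent from LIN28B-203, the transcript with the longest coding sequence, which has a shorter 3′ UTR.

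The 21 bases of the LIN28B cluster occur at 1 other place in hg38, chr7:49506343-49506363 on the minus strand, outside any gene of the annotation. Rep.A had a cluster that overlapped these bases, with a coverage of 8.0 reads and 1 transition, and Rep.B had none there. The sequence therefore overlapped a cluster in both replicates, at a different copy in each. Its source, the LIN28B mRNA or the copy on chromosome 7, cannot be told apart from the sequence. YBX2 (ENSG00000006047, chromosome 17, 7288263 to 7294639) and LIN28A (ENSG00000131914, chromosome 1, 26410817 to 26429728) had no cluster on either strand. The pseudogenes LIN28AP1, LIN28AP2, YBX2P1, YBX2P2 and YBX3P1 had none on their own strand.

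The longer sites had no close match in the other genes. The coding sequences of YBX1 and YBX3 were identical at 71.5% of aligned bases, gaps left out, and those of YBX1 and YBX2 at 66.7%. The latter was near the values of YBX1 with LIN28A, 67.3%, and with LIN28B, 61.8%. The shared bases of the second YBX1 site, 31 in number, differed from the best ungapped match in the mRNAs of YBX2, YBX3, LIN28A and LIN28B at 12 to 15 bases. Those of the first site, 18 in number, differed at 6 or 7. The YBX3 site differed from its best match in the YBX1 mRNA at 9 of 24 bases. The short sites came closer, since the 12 bases of exon 4 differed from the best match in YBX2 and in YBX3 at 1 base each, and the 10 bases of exon 6 differed from that in LIN28A at 1.

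CATC and CACC, tetramers of the kind that cold shock domains of Y-box proteins bind, were searched on the sense strand. The exon 5 sites of YBX1 held neither. The 1134 to 1159 site held CATC 3 times, the last pair overlapping by 1 base, the LIN28B cluster held CATC 1 time, and the YBX3 cluster held CACC 1 time. Among the 1028 reproducible regions of 18 to 100 bases, 39.2% held CATC, 39.0% held CACC and 63.4% held either.

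In the plot of both replicates, the first region of YBX1 and that of YBX3 lay in the upper part of the protein-coding exons. The second region of YBX1 stood above 93.3% of the regions in such exons in Rep.A and 64.6% in Rep.B. The 3 protein-coding genes whose highest region was closest to that of YBX1 in the log2 coverage of both replicates, of 654 genes compared, were DPP9, a dipeptidyl peptidase, PARP1, the poly(ADP-ribose) polymerase, and EIF1, an initiation factor that acts in start codon selection. Their coverages were 28.2 to 30.0 reads in Rep.A against 55.4 to 56.9 reads in Rep.B. The YBX1 values compared, 29.1 (Rep.A) and 58.4 (Rep.B), hold only the reads placed at the gene. Summed over all loci with a cluster, the same site reached 59.9 and 152.3. DPP9, PARP1 and EIF1 are thus closest to the gene locus, and the summed site was not compared. The closest to YBX3 were RPL8, a protein of the large ribosomal subunit, SERBP1, an mRNA-binding protein also found on ribosomes, and OXA1L, which inserts proteins into the inner mitochondrial membrane. Their coverages were 43.0 to 44.3 reads in Rep.A against 113.0 to 128.2 reads in Rep.B. The distances were 0.06 to 0.10 log2 units.

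**Figure D4:**
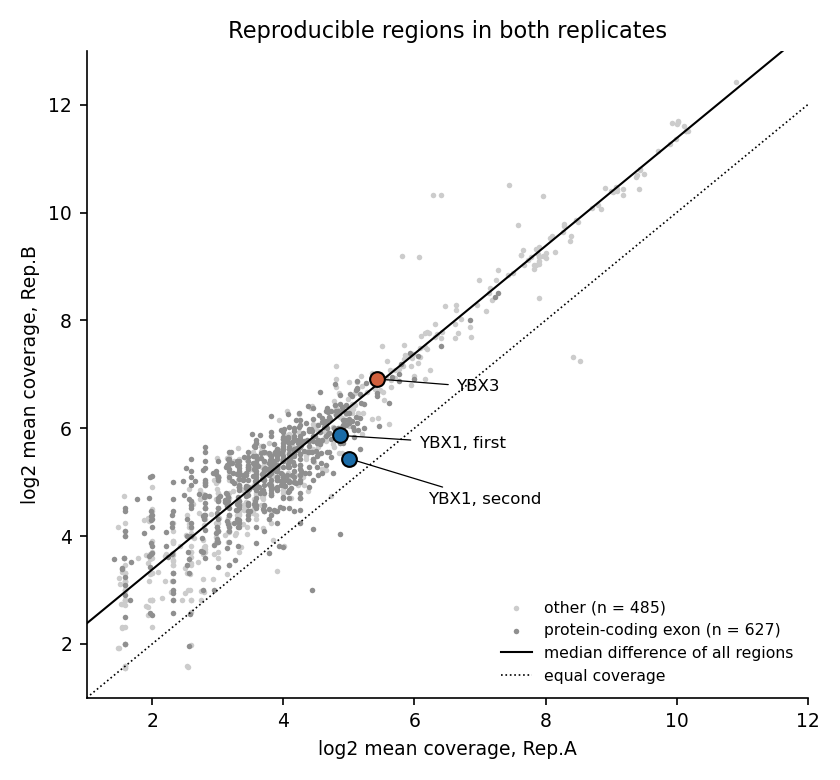
Log2 mean coverage in Rep.B against Rep.A for the reproducible regions of the genome, with the regions of YBX1 (blue) and YBX3 (orange). The solid line is the median difference of 1.38 and the dotted line is equal coverage, and 3 regions with a log2 coverage under 1 are not drawn. YBX3 lies on the solid line, and the second region of YBX1 lies between both lines.

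Other genes of related function were read from fixed lists. Of 6 further genes with a cold shock domain or a similar fold, 1 had a reproducible region, beside 3.32% of all protein-coding genes. This was CARHSP1, a small cytoplasmic cold shock protein. Its region lay in the 3′ UTR, 204 nucleotides past the stop codon, with a coverage of 11.8 reads in Rep.A against 23.5 in Rep.B. DIS3, the catalytic nuclease of the RNA exosome, had a cluster in Rep.A alone, and was named after its values were seen.

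Of 22 genes for proteins that share mRNA particles with YB-1, 3 had a reproducible region, again beside 3.32% of all protein-coding genes. SERBP1 had 2, the higher one in the 3′ UTR with a coverage of 43.0 reads in Rep.A against 113.0 in Rep.B. HNRNPK, a poly(C)-binding protein, had 1 in its coding sequence with 29.0 and 62.8 reads, and the sequence of its Rep.B cluster occurs 2 times in hg38. G3BP2, a stress granule protein, had 1 in its 3′ UTR with 10.0 and 30.0 reads. The coverage of SERBP1 was close to that of YBX3 in both replicates, and both stood above the first region of YBX1 as placed at the gene. This order depends on read placement. Summed over all loci with a cluster, that YBX1 site reached 59.9 (Rep.A) and 152.3 (Rep.B), above both SERBP1 and YBX3. The part placed in copies cannot be assigned to the YBX1 mRNA or to a pseudogene from the cluster bases.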

How the data were processed

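YB-1 PAR-CLIP was performed in 2 replicates of wild-type HEK293T cells. Per the submitters' processing notes and methods, cutadapt 2.10 removed adapters and Bowtie 1.0.0 placed the reads on hg38, unspliced, a read of several matches being kept at 1 place. The authors ran wavClusteR on each replicate alone to call clusters. As deposited, mean coverage is a signal (reads per base). Transitions and T bases were deposited as whole-number counts. The deposited crosslinking efficiency is a fraction, equal to transitions over T bases within 0.01 in all 3393 clusters. The deposited log odds are a score.

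The cluster sequences all matched hg38. Genes came from GENCODE release 44, and mRNA positions from the complete transcript with the longest coding sequence. Clusters of 18 to 100 bases were matched to these mRNAs with at most 1 mismatch, and copies were searched on the main chromosomes. Shorter clusters were placed by local alignment, an alternative added after seeing the data. Library totals were not used. The intervals cover counting error only. With 2 samples of 1 condition, no test was made. The named genes were the 5 members, genes holding a matching cluster, genes of the lists with a reproducible region, and the 3 genes closest in coverage to YBX1 and to YBX3. DIS3 falls outside this rule. The result of 1 gene of the lists is not reported here. Members and lists were chosen with earlier results of these data known. Joining and matching were tested on simulated data. Python 3.11.15, numpy 2.4.6, pandas 2.3.3, numba, pysam 0.24.0 and biopython were used.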

Additional observations from a re-analysis of the deposited data

How the results depend on the processing

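Of 59 values recomputed under alternatives, 52 stayed within 1.5 times the main count or within 1 SD of the main difference, and 7 moved further. Keeping only clusters of 18 to 100 bases whose sequence occurs once in hg38 moved the clusters at the 5 genes from 4 to 1 in each replicate, the reproducible regions from 3 to 1 and the genes with a region from 2 to 1. The region that is left is that of YBX3, by the construction of this alternative. Counting either strand gave 5 clusters in each replicate. With 1 replicate in place of both, the number of regions at the 5 genes was 4 to 4, of genes 2 to 3, of matching regions outside the genes 7 to 7, of other cold shock domain genes 2 to 2 and of genes for mRNA particle proteins 4 to 5. Clusters that match a member mRNA numbered 10 in each replicate, with a range of 8 to 14 for Rep.A against 10 to 13 for Rep.B over the alternatives. Coverage outside clusters is not in the tables, which limits what can be said of genes and copies without one.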

Other observations

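Clusters on the strand opposite to YBX1 and its copies numbered 3 in Rep.A, with a coverage of 4.0 to 26.5 reads, and 3 in Rep.B, with 21.1 to 31.9 reads. Of these 6 clusters, 5 lay opposite positions 964 to 1025 of the YBX1 mRNA, in exon 7, at 3 loci (YBX1, YBX1P1 and YBX1P10). At the YBX1 gene, the cluster opposite the mRNA had a coverage of 26.5 reads in Rep.A, at chr1:42700869-42700917, and 26.8 reads in Rep.B, at chr1:42700869-42700896. At YBX1P1 the clusters had 10.0 reads in Rep.A against 21.1 in Rep.B. At YBX1P10, the one in exon 7 was called in Rep.B alone, with 31.9 reads, and the remaining one, opposite 564 to 601, in Rep.A alone, with 4.0 reads. In hg38, the sequence of the Rep.A cluster at the gene occurred 1 time and that of the Rep.B cluster there 3 times. That of the Rep.B cluster at YBX1P1 occurred 5 times, and copies of the clusters of 14 bases were not counted. A read of several matches was kept at 1 place, so these loci may not be separate signals. Over the genome, 5 of the 1112 reproducible regions (0.450%, 95% Wilson interval 0.192 to 1.05%) lay opposite an exon of a protein-coding gene with no gene on their own strand, and that at YBX1 was among them. No cluster on the sense strand was called in the 279 nucleotides between the site in exon 6 and that at 1134 to 1159.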
